A study of Homo sapiens with 6 samples.

Results

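Ubiquitin-conjugating enzymes, the E2 enzymes, take activated ubiquitin from an E1 enzyme and, together with an E3 ligase, pass it to a substrate. The E2 largely sets the kind of chain that is built, and the E3 picks the substrate. Most human E2 genes carry a symbol beginning with UBE2, and the family also holds E2 enzymes for the ubiquitin-like modifiers such as NEDD8, ISG15 and FAT10 and E2 variants without a catalytic cysteine. In dividing carcinoma cells the family is best known through UBE2C and UBE2S, which work with the anaphase-promoting complex (APC/C), the E3 ligase that marks mitotic cyclins and securin for destruction.

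The 37 protein-coding genes of GENCODE release 44 whose symbol begins with UBE2 were examined by symbol alone, out of 60612 genes listed in each table. Of the 37 genes, 32 had a mean of at least 1 FPKM (fragments per kilobase of transcript scaled to the mapped total of the library) over the 6 libraries and were tested, and 5 lay below that limit. A gene was called when its adjusted p in limma was below 0.05, with p-values adjusted by the Benjamini-Hochberg method over all 12076 genes that passed the same limit. Fold changes are LV-SNORA28 minus LV-NC on the log2(FPKM + 1) scale, on which low genes appear to change less than they do.

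The libraries came from HCT116, an established human colorectal carcinoma line. Of the 6 libraries, 3 (LV-NC) were made after infection with a negative control lentivirus and 3 (LV-SNORA28) after infection with a lentivirus in the GV235 vector that carries the H/ACA small nucleolar RNA SNORA28. Cells were collected after 72 h of infection. The methods name puromycin for the selection of stable lines and do not say whether the sequenced cells were selected. Both groups thus carry a lentiviral vector, and neither an uninfected culture nor a further cell line is among the samples. Whether the replicates were separate cultures is not given in the sources used here, so the p-values measure the spread between these libraries only. SNORA28 had 0.92, 0 and 0.64 FPKM in LV-NC against 15.01, 13.66 and 15.2 FPKM in LV-SNORA28, which fits the labels. EPCAM (96.9 to 115 FPKM), KRT8, KRT18, KRT19 and CDH1 were present, of the intestinal markers CDX2 had 3.47 to 4.33 FPKM while VIL1 and LGALS4 stayed at or below 0.1 FPKM, and of 8 markers of leukocytes, endothelium and fibroblasts only COL1A1 exceeded 0.19 FPKM. Mitochondrially encoded genes made up 42.7% to 47.7% of all FPKM in LV-NC and 35.9% to 38.3% in LV-SNORA28. The read depth could not be recovered from the values, so no counting error is attached to them.

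SNORA28 overexpression was compared with the control to ask which E2 genes differ. In these bulk samples more RNA per cell and more cells that express a gene cannot be told apart. Of the 32 UBE2 genes tested, 7 rose and none fell in limma, with UBE2V2, UBE2B, UBE2D1, UBE2W, UBE2C, UBE2E1 and UBE2S as the 7. This is 21.9% of the UBE2 genes tested, beside 6.81% of all genes tested called higher and 2.1% called lower. At an unadjusted p below 0.05 in limma, 12 UBE2 genes were higher and 1 was lower, beside 22.0% and 6.08% of all genes tested. A limma fit without the mean-variance trend called 4 UBE2 genes higher and none lower, beside 6.24% and 1.86% of all genes. The median fold change was 0.14 on the log2 scale over the UBE2 genes tested and 0.09 over all genes tested, and 22 of the 32 lay above the median of all genes. For 14 UBE2 genes (43.8%) the 3 libraries of one group did not overlap the 3 of the other, 13 of them higher and 1 lower in LV-SNORA28, beside 35.1% of all genes tested. The study's threshold (unadjusted p below 0.05, fold above 1.5) was passed by UBE2B and UBE2W, 6.25% of the UBE2 genes tested beside 3.79% of all genes.

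The number of called UBE2 genes fell when any 1 library was left out, and so did the share of all genes called. It was 0 in limma without LV-SNORA28 replicate 2, where 9 UBE2 genes kept an unadjusted p below 0.05, and 1 without LV-NC replicate 1. It was 4 without LV-NC replicate 2 and 2 when any 1 of the other 3 libraries was left out. Of all genes tested, 6.81% were called higher in the main fit. This share was 1.56% without LV-SNORA28 replicate 2, 4.08% without LV-NC replicate 1 and 3.09% without LV-NC replicate 2. Without 1 of the other libraries it was 1.77% to 2.78%. The fold changes of the 7 genes stayed positive in all of these fits.

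**Figure D1:**
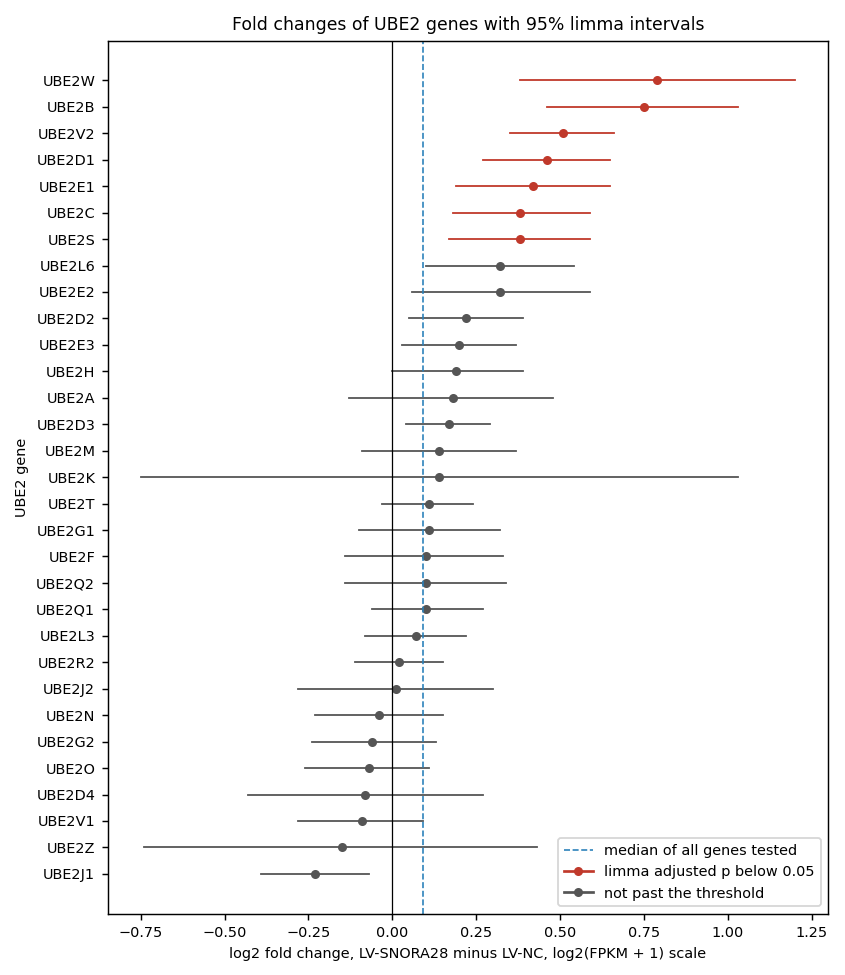
Log2 fold changes (LV-SNORA28 minus LV-NC, log2(FPKM + 1) scale) of 31 UBE2 genes tested, with 95% limma intervals from 3 libraries per group, ordered by size. Red points are the 7 genes with an adjusted p below 0.05 in limma, and the dashed line is the median of all genes tested, 0.09.

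The level of the family was uneven. UBE2S, UBE2C, UBE2L3, UBE2M and UBE2V1 were the 5 UBE2 genes with the highest mean FPKM, a measure that is scaled to transcript length. The summed FPKM of the 37 genes was 527, 539 and 528 in the LV-NC libraries and 603, 620 and 609 in the LV-SNORA28 libraries. These ranges were apart, with means of 531 ± 6.66 and 611 ± 8.62 (SD, n = 3 each). Because the mitochondrial share of the libraries differed between the groups, the sum was also set against the nuclear FPKM of each library. Scaled to a nuclear FPKM sum of 1000000 it was 2757, 2749 and 2718 in LV-NC and 3063, 3108 and 3106 in LV-SNORA28, so the gap between the groups remained on that scale. UBE2S and UBE2C together held 23%, 25.4% and 26.3% of the UBE2 sum in LV-NC and 30.3%, 28.8% and 25.8% in LV-SNORA28, and these shares overlapped. Without UBE2S and UBE2C the sum was 406, 402 and 389 FPKM in LV-NC and 420, 441 and 452 FPKM in LV-SNORA28.

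**Figure D2:**
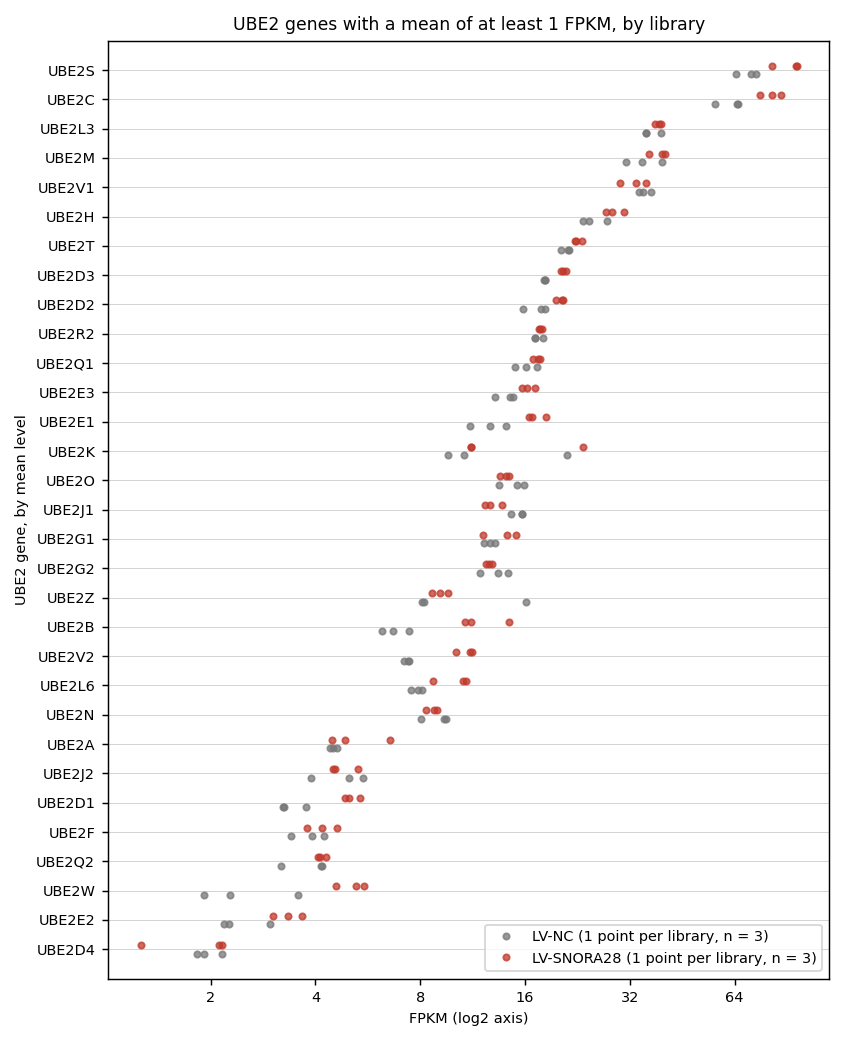
FPKM of 31 UBE2 genes that passed the limit of 1 FPKM, on a log2 axis, with 1 point per library (grey LV-NC, red LV-SNORA28, n = 3 each). UBE2S and UBE2C lie at the top with LV-SNORA28 libraries to the right of all LV-NC libraries, and UBE2K and UBE2Z have single libraries far from the others of their group.

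The E2 enzymes of mitosis, UBE2C and UBE2S, were the most abundant of the family, and both rose. UBE2C (ENSG00000175063; GRCh38 chr20:45812576-45816957, plus strand) places the first ubiquitins on APC/C substrates. It had 56.29, 65.54 and 65.17 FPKM in LV-NC and 86.75, 82.06 and 75.51 FPKM in LV-SNORA28. All LV-SNORA28 libraries were above all LV-NC libraries, and the means were 62.3 ± 5.24 and 81.4 ± 5.65 FPKM (SD, n = 3 each). The log2 fold change was 0.38 (SE 0.09, 95% interval 0.18 to 0.59), with an adjusted p of 0.0438 in limma.

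UBE2S (ENSG00000108106; chr19:55399745-55407788, minus strand) extends K11-linked chains on the same substrates. It had 64.6, 71.15 and 73.81 FPKM in LV-NC and 96.02, 96.46 and 81.98 FPKM in LV-SNORA28. The groups again did not overlap, although LV-SNORA28 replicate 3 lay nearer to the controls than the other two. Its log2 fold change was 0.38 (SE 0.09, 95% interval 0.17 to 0.59), with an adjusted p of 0.0469 in limma. UBE2S overlaps the ribosomal protein gene RPL28 on the opposite strand, which had 143.65, 153.72 and 142.14 FPKM in LV-NC and 128.5, 119.18 and 110.02 FPKM in LV-SNORA28. RPL28 was thus lower where UBE2S was higher, and whether the quantification used the strand is not given in the sources used here. Both calls were close to the threshold, and of 14 alternative fits only 3 called UBE2C and 2 called UBE2S. Leaving out any 1 library ended both, as did quantile normalization (adjusted p = 0.0899 for UBE2C and 0.06 for UBE2S in limma).

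The E2 of the Fanconi anaemia pathway, UBE2T (ENSG00000077152; chr1:202331544-202341984, minus strand), which monoubiquitinates FANCD2 and FANCI, did not pass the test. It had 21.4, 21.26 and 20.3 FPKM in LV-NC and 23.4, 22.37 and 22.22 FPKM in LV-SNORA28. All of the latter were higher, but the distance was small, with a log2 fold change of 0.11 (95% interval -0.03 to 0.24) and an adjusted p of 0.274 in limma.

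Genes of the late cell cycle often carry CCAAT boxes and a CHR element in their promoters, and the RefSeq windows of 250 bases before to 50 after the gene start (GRCh38.p14) were read for these letters on both strands. Windows existed for 28 of the 37 UBE2 genes, 25 of them tested. The called genes UBE2B, UBE2C, UBE2V2 and UBE2W had no window, so only 3 called genes were searched. The windows of UBE2S at chr19:55407739-55408038 (minus strand) and UBE2T at chr1:202341887-202342186 (minus strand) are shown because one belongs to a called and the other to an uncalled gene with a role in dividing cells, and that of UBE2D1 at chr10:58334756-58335055 (plus strand) because UBE2D1 rose and held none of the motifs searched except GGGCGG. Each runs 5′ to 3′ on the strand of its gene, and the capitals mark CCAAT or its reverse ATTGG, the CHR letters TTTGAA, and TGACGTCA, a cAMP response element.
UBE2S: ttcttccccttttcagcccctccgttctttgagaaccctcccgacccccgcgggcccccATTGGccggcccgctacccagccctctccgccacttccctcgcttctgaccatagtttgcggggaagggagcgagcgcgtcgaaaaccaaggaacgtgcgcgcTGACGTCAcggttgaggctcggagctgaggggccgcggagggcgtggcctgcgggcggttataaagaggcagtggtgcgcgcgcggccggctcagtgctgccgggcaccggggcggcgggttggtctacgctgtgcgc
UBE2T: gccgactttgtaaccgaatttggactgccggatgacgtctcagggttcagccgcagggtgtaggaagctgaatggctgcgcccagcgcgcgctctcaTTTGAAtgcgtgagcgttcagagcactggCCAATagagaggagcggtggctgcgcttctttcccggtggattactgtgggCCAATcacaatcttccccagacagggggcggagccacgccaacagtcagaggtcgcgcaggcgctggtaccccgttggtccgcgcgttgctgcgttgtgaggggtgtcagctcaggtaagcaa
UBE2D1: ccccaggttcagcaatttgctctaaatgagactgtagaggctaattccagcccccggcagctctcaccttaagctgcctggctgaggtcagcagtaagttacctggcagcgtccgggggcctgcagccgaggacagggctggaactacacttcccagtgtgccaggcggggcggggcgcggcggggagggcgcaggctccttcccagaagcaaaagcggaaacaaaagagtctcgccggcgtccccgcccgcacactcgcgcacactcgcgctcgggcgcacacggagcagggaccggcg
UBE2S held one CCAAT box in the reverse direction and one TGACGTCA, and UBE2T held a pair of CCAAT boxes and one CHR. Some genes have several windows, and the shares that follow count a gene when any of its windows holds the letters. CCAAT on either strand occurred in 8 of the 25 tested UBE2 genes with a window and in 43.2% of the 8814 tested genes with one. The CHR, searched as TTTGAA or TTCGAA on either strand, occurred in UBE2F and UBE2T and in 14.4% of those genes. TGACGTCA, a palindrome, occurred in UBE2S and in 4.04% of those genes. GGGCGG, a GC box, occurred in 22 of the 25 UBE2 genes and in 79.6% of those genes.

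The Rad6-type enzymes UBE2A and UBE2B serve DNA damage tolerance, through RAD18 and PCNA, and the ubiquitination of histone H2B, through RNF20 and RNF40. They are close paralogs and moved unequally. UBE2B (ENSG00000119048; chr5:134371184-134392108, plus strand) had 6.21, 7.43 and 6.69 FPKM in LV-NC and 10.76, 11.23 and 14.36 FPKM in LV-SNORA28. Every LV-SNORA28 library was above every LV-NC library, and replicate 3 was the highest. The means were 6.78 ± 0.615 and 12.1 ± 1.96 FPKM (SD, n = 3 each), a ratio of 1.79. The log2 fold change was 0.75 (SE 0.12, 95% interval 0.46 to 1.03), with an adjusted p of 0.0181 in limma. The call held in 10 of 14 alternative fits and was lost without LV-NC replicate 1 (adjusted p = 0.0515 in limma), without LV-NC replicate 3 (0.0596), without LV-SNORA28 replicate 2 (0.0559) and in the fit without a filter.

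UBE2A (ENSG00000077721; chrX:119474802-119591083, plus strand) had 4.42, 4.48 and 4.63 FPKM in LV-NC and 4.47, 4.85 and 6.57 FPKM in LV-SNORA28. Only LV-SNORA28 replicate 3 stood clearly above the controls, and the adjusted p was 0.409 in limma for a log2 fold change of 0.18. The log2 ratio of UBE2B to UBE2A was 0.49, 0.73 and 0.53 in LV-NC and 1.27, 1.21 and 1.13 in LV-SNORA28.

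The UBE2D enzymes pair with a wide range of RING ligases, among them MDM2 and the cullin-RING ligases. UBE2D1 (ENSG00000072401; chr10:58334979-58370751, plus strand) was the only one of the 4 that rose in limma, from 3.24, 3.23 and 3.76 FPKM in LV-NC to 4.98, 5.37 and 4.87 FPKM in LV-SNORA28. The groups were well apart relative to their spread, with means of 3.41 ± 0.303 and 5.07 ± 0.263 FPKM (SD, n = 3 each). Its log2 fold change was 0.46 (SE 0.08, 95% interval 0.27 to 0.65), with an adjusted p of 0.0223 in limma, and 5 of 13 alternative fits called it. Leaving out any library other than LV-NC replicate 3 ended the call.

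The far more abundant UBE2D2 and UBE2D3 shifted by less. UBE2D2 (ENSG00000131508; chr5:139526431-139628434, plus strand) had 15.78, 17.74 and 18.23 FPKM in LV-NC and 19.61, 20.61 and 20.44 FPKM in LV-SNORA28, at a log2 fold change of 0.22 (adjusted p = 0.106 in limma). UBE2D3 (ENSG00000109332; chr4:102794383-102868896, minus strand) had 18.3, 18.32 and 18.15 FPKM in LV-NC and 20.27, 21.01 and 20.58 FPKM in LV-SNORA28, at a log2 fold change of 0.17 (adjusted p = 0.0968 in limma). For both genes the groups did not overlap and the test was not passed. UBE2D4, at 1.83 to 2.16 FPKM in LV-NC and 1.26 to 2.16 FPKM in LV-SNORA28, overlapped entirely.

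The UBE2E enzymes are related to the UBE2D class and carry an extended N-terminus. UBE2E1 (ENSG00000170142; chr3:23805955-23891640, plus strand) had 12.73, 14.14 and 11.13 FPKM in LV-NC and 16.46, 18.43 and 16.78 FPKM in LV-SNORA28. No library of one group lay within the other, with means of 12.7 ± 1.51 and 17.2 ± 1.06 FPKM (SD, n = 3 each). The log2 fold change was 0.42 (SE 0.1, 95% interval 0.19 to 0.65), with an adjusted p of 0.0468 in limma, and 3 of 14 alternative fits called it. Of the fits that left out 1 library, only the one without LV-NC replicate 2 kept the call. UBE2E2 was at 2.19 to 2.97 FPKM in LV-NC and 3.03 to 3.65 FPKM in LV-SNORA28, and UBE2E3 at 13.13 to 14.81 and 15.72 to 17.13 FPKM. Neither of these passed the test, with adjusted p-values of 0.119 for UBE2E2 and 0.128 for UBE2E3 in limma.

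K63-linked chains, which act in signalling and DNA repair rather than degradation, are built by UBE2N bound to one of the catalytically inactive variants UBE2V1 or UBE2V2. UBE2V2 (ENSG00000169139; chr8:48008415-48064708, plus strand) had 7.21, 7.45 and 7.36 FPKM in LV-NC and 10.12, 11.3 and 11.14 FPKM in LV-SNORA28. The control libraries were tightly grouped, and all LV-SNORA28 libraries lay above them. The means were 7.34 ± 0.121 and 10.9 ± 0.64 FPKM (SD, n = 3 each), a ratio of 1.48. The log2 fold change was 0.51 (SE 0.07, 95% interval 0.35 to 0.66), and the adjusted p of 0.0105 in limma was the lowest of the family. UBE2V2 was called in 12 of 14 alternative fits, and the other 2 were the fit without LV-SNORA28 replicate 2 (adjusted p = 0.0509 in limma) and the one with the GC trend removed (0.052).

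Its catalytic partner UBE2N (ENSG00000177889; chr12:93405673-93441947, minus strand) had 8.05, 9.46 and 9.36 FPKM in LV-NC and 8.31, 8.93 and 8.76 FPKM in LV-SNORA28. These values overlapped, with a log2 fold change of -0.04 (95% interval -0.23 to 0.15) and an adjusted p of 0.785 in limma. UBE2V1 (ENSG00000244687; chr20:50081124-50115959, minus strand), the other variant, had 36.76, 34.94 and 33.9 FPKM in LV-NC and 35.7, 33.35 and 30.08 FPKM in LV-SNORA28. Its groups overlapped too, with an adjusted p of 0.491 in limma for a log2 fold change of -0.09.

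UBE2V1 shares its locus and strand with the read-through gene PEDS1-UBE2V1 (ENSG00000124208), which had 10.03 and 9.91 FPKM in LV-NC replicates 2 and 3 and was listed at 0 in the other 4 libraries. The split of fragments between these genes can differ from library to library, so their sum was also taken, after the values had been seen, although the transcripts differ in length. The summed FPKM was 36.76, 44.97 and 43.81 in LV-NC and 35.7, 33.35 and 30.08 in LV-SNORA28. On the sum the groups no longer overlapped and LV-SNORA28 was lower, with means of 41.8 ± 4.44 and 33 ± 2.82 (SD, n = 3 each). The log2 ratio of UBE2V2 to UBE2V1 was -2.35, -2.23 and -2.2 in LV-NC and -1.82, -1.56 and -1.43 in LV-SNORA28.

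The 6 tested enzymes that build K48-linked chains or act at the endoplasmic reticulum (ER), UBE2G1, UBE2G2, UBE2J1, UBE2J2, UBE2K and UBE2R2, had a median log2 fold change of 0.02, and none passed the test. UBE2J1 (ENSG00000198833; chr6:89326625-89352722, minus strand), a membrane-anchored E2 of ER-associated degradation, was the only tested UBE2 gene whose LV-SNORA28 libraries all lay below its LV-NC libraries. It had 15.72, 14.59 and 15.64 FPKM in LV-NC and 12.32, 12.68 and 13.72 FPKM in LV-SNORA28. The log2 fold change was -0.23 (95% interval -0.39 to -0.07), and the adjusted p was 0.0821 in limma. It passed as lower in the quantile-normalized fit (adjusted p = 0.0333 in limma) and with the GC trend removed (0.0129). Its ER partner in the same pathway, the ligase SYVN1 (ENSG00000162298), fell in limma, from 11.82, 11.85 and 11.43 FPKM to 8.34, 9.36 and 9.08 FPKM, at a log2 fold change of -0.36 (SE 0.07, adjusted p = 0.0262). SYVN1 was called in 6 of 14 alternative fits and in 0 of those that left out 1 library.

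UBE2K and UBE2Z had libraries that stood apart within a group. UBE2K (ENSG00000078140; chr4:39698109-39782792, plus strand), a K48 chain builder, had 21.09, 10.69 and 9.64 FPKM in LV-NC and 11.22, 11.21 and 23.55 FPKM in LV-SNORA28. One library of each group was well above the rest, and the direction of the fold change (0.14 on the log2 scale, adjusted p = 0.844 in limma) depended on which library was included. UBE2Z, an E2 that can be charged with FAT10, had 16.14, 8.18 and 8.07 FPKM in LV-NC and 8.65, 9.13 and 9.61 FPKM in LV-SNORA28. Without LV-NC replicate 1 its fold change turned from -0.15 to 0.15 on the log2 scale.

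**Figure D3:**
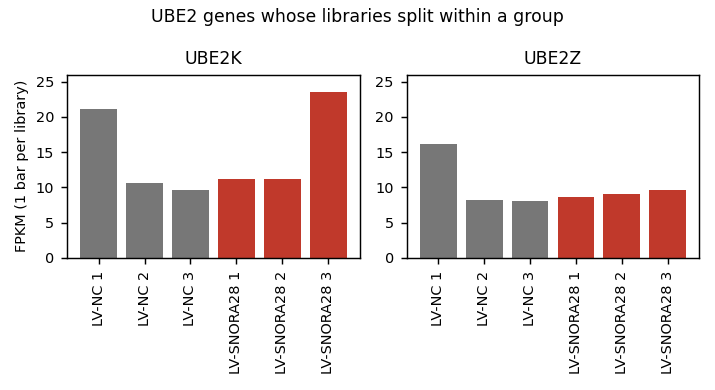
FPKM of UBE2K and UBE2Z in each of the 6 libraries, 1 bar per library (grey LV-NC, red LV-SNORA28). UBE2K ranged from 9.64 to 21.09 in LV-NC and from 11.21 to 23.55 in LV-SNORA28, and LV-NC replicate 1 stood apart for UBE2Z at 16.14.

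The E2 enzymes of NEDD8, which activates the cullin-RING ligases, were measured at different levels. UBE2M (ENSG00000130725; chr19:58555712-58558954, minus strand) had 31.31, 34.73 and 39.68 FPKM in LV-NC and 36.4, 39.54 and 40.52 FPKM in LV-SNORA28, at a log2 fold change of 0.14 (adjusted p = 0.389 in limma). UBE2F (ENSG00000184182; chr2:237966827-238042782, plus strand) had 4.24, 3.41 and 3.91 FPKM in LV-NC and 3.78, 4.6 and 4.17 FPKM in LV-SNORA28, with an adjusted p of 0.571 in limma. The groups overlapped for both genes.

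UBE2L6 (ENSG00000156587; chr11:57551656-57568284, minus strand), the E2 of the interferon-induced modifier ISG15, had 7.91, 8.08 and 7.51 FPKM in LV-NC and 10.65, 10.83 and 8.73 FPKM in LV-SNORA28. Each LV-SNORA28 library was above all controls, yet the spread within LV-SNORA28 was wide and the test was not passed, with a log2 fold change of 0.32 (95% interval 0.1 to 0.54) and an adjusted p of 0.08 in limma. UBE2L3 (ENSG00000185651; chr22:21549447-21624034, plus strand), which serves HECT and RING-between-RING (RBR) ligases, had 35.61, 39.32 and 35.7 FPKM in LV-NC and 38.95, 39.38 and 37.88 FPKM in LV-SNORA28. Its groups overlapped, and the adjusted p was 0.504 in limma for a log2 fold change of 0.07.

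UBE2W (ENSG00000104343; chr8:73780097-73878910, minus strand), which attaches ubiquitin to the N-terminus of substrates rather than to lysine, had the largest log2 fold change among the UBE2 genes tested. It had 2.27, 3.56 and 1.92 FPKM in LV-NC and 4.58, 5.23 and 5.51 FPKM in LV-SNORA28. There was no overlap, but LV-NC replicate 2 lay about midway between the other controls and the LV-SNORA28 libraries. The means were 2.58 ± 0.864 and 5.11 ± 0.477 FPKM (SD, n = 3 each), a ratio of 1.98. The log2 fold change was 0.79 (SE 0.17, 95% interval 0.38 to 1.2), with an adjusted p of 0.0391 in limma, and 4 of 13 alternative fits called it. Leaving out any library other than LV-NC replicate 2 ended the call.

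Of the remaining tested genes, UBE2H, UBE2O, UBE2Q1 and UBE2Q2 did not pass the test. UBE2H, which acts with the CTLH ligase, had 23.53 to 27.59 FPKM in LV-NC and 27.37 to 30.74 FPKM in LV-SNORA28, with an adjusted p of 0.18 in limma. The other 3 genes had log2 fold changes from -0.07 to 0.1. The 5 genes below the limit were UBE2F-SCLY, a read-through gene with at most 1.24 FPKM in any library, and UBE2L5, UBE2NL, UBE2QL1 and UBE2U, each with at most 0.08 FPKM.

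Close paralogs were compared within each library, which cancels the scaling of the library. The 8 pairs were chosen after the values had been seen, so the exact tests describe the pairs and are not independent of the calls. The log2 ratio of the pair did not overlap between the groups in 5 of 8, which were UBE2B to UBE2A, UBE2V2 to UBE2V1, UBE2D1 to UBE2D2, UBE2D1 to UBE2D3 and UBE2E1 to UBE2E3. The first gene of each of these pairs was a called gene, and UBE2D1 entered more than once. The share over other pairs of genes was not taken, and 35.1% of single genes tested did not overlap. The differences in log2 ratio of these 5 pairs, LV-SNORA28 minus LV-NC, were 0.62, 0.66, 0.34, 0.4 and 0.24. Each had a two-sided exact permutation p of 0.1, the smallest that 3 against 3 libraries allow, and 0.16 after Benjamini-Hochberg adjustment over the 8 pairs, so none could pass a threshold of 0.05. Among the genes that rose, UBE2B was the more abundant member of its pair in every library, whereas UBE2V2 and UBE2D1 were the less abundant members of theirs. The ratios of UBE2E1 to UBE2E2, UBE2J1 to UBE2J2 and UBE2Q1 to UBE2Q2 overlapped, with differences of 0.01, -0.26 and -0.02.

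The base composition of the transcripts moved with these results. In the canonical transcripts the median GC content was 36.4% over the 7 called UBE2 genes (33.6% to 55.7%) and 46.5% over the 25 uncalled ones (36.1% to 63.2%). UBE2D1, UBE2V2, UBE2W, UBE2B and UBE2E1 fell in the lowest of 5 equal bins of all genes by GC content (up to 41%), and UBE2C and UBE2S lay above 50%. In that lowest bin 10.2% of all genes tested were called higher and the median fold change was 0.16 on the log2 scale, against 2.99% and 0.02 in the highest bin. Among the 10 UBE2 genes of the lowest bin, 5 were called and the median was 0.29. When the trend of fold change on GC content was removed, a step added after the data had been seen, UBE2B stayed higher (log2 fold change 0.56, adjusted p = 0.0415 in limma) and UBE2J1 became lower (-0.39, 0.0129), while the other 6 called genes lost their call. In that fit 1 of 32 UBE2 genes was higher and 1 lower, beside 362 (3.0%) higher and 340 lower of 12053 genes tested. The log2 fold changes of UBE2S, UBE2C and UBE2W were then 0.33, 0.31 and 0.59. Those of UBE2V2, UBE2E1 and UBE2D1, at 0.3, 0.27 and 0.25, were smaller than before by more than 1.5 times. The median of the UBE2 genes was then 0.01 and that of all genes -0.01. The part of GC content in the calls was not tested.

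**Figure D4:**
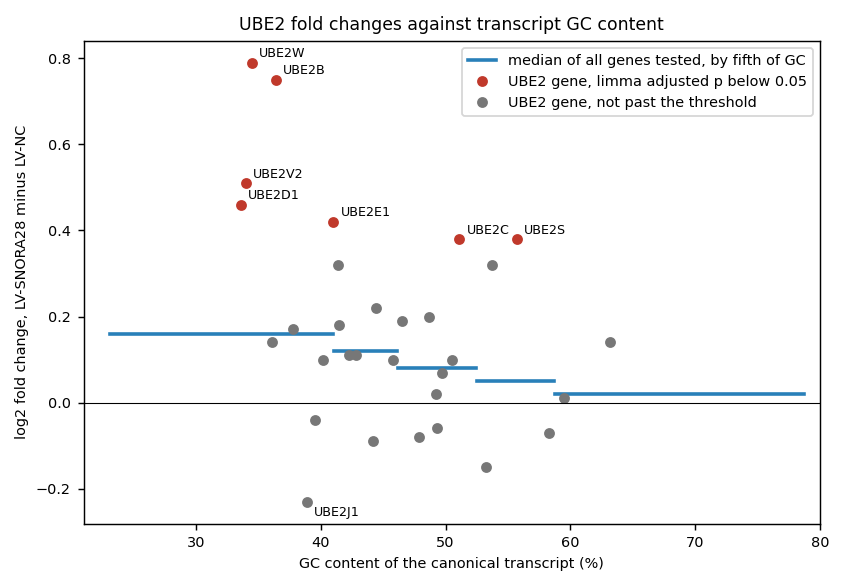
Log2 fold change of 31 UBE2 genes (points, red where the adjusted p in limma was below 0.05) against the GC content of the canonical transcript in percent, with blue lines for the median of all genes tested in each of 5 equal bins of GC content. The blue median declines from 0.16 to 0.02, and UBE2W, UBE2B, UBE2V2 and UBE2D1 lie at the low-GC end above it.

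Many UBE2 genes have processed copies that can take fragments from the parent gene. Of 54 UBE2 pseudogenes listed, 30 were at 0 in all libraries and 8 passed the limit of 1 FPKM. In limma none of the 8 was called, none had an unadjusted p below 0.05, and none was called without the mean-variance trend. UBE2SP1, a copy of UBE2S, had 8.43, 11.86 and 7.19 FPKM in LV-NC and 8.64, 5.97 and 8.16 FPKM in LV-SNORA28, overlapping and far below its parent. UBE2V1P2 had 10.78, 9.67 and 8.8 FPKM in LV-NC and 13.01, 10.68 and 10.31 FPKM in LV-SNORA28. How fragments that match a gene and its copy were shared is not given in the sources used here.

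The genes that act before and after the E2 step were read from 10 lists holding 113 genes, of which 108 were tested. Of these, 7 rose (6.48%) and 2 fell in limma, close to the background, with a median log2 fold change of 0.12 against 0.09 for all genes tested. These 9 calls became 3, 1 and 2 without LV-NC replicates 1, 2 and 3. They became 0 in limma when any 1 LV-SNORA28 library was left out, where 21 to 30 genes kept an unadjusted p below 0.05. Of all genes tested, 6.81% were called higher in the main fit. The share was 4.08%, 3.09% and 2.7% without LV-NC replicates 1, 2 and 3. It was 2.78%, 1.56% and 1.77% without LV-SNORA28 replicates 1, 2 and 3. Among the E1 enzymes 2 of 9 rose, UBA2, the catalytic subunit of the SUMO E1 (0.38, adjusted p = 0.0221 in limma), and NAE1, a subunit of the NEDD8 E1 (0.34, 0.0356). Without 1 library UBA2 stayed called only when LV-NC replicate 3 was the one left out, and NAE1 in no such fit. UBA1, the main E1 of ubiquitin, had 69.36, 66.49 and 69.22 FPKM in LV-NC and 77.52, 69.32 and 69.69 FPKM in LV-SNORA28, with an adjusted p of 0.491 in limma. Of 8 E2-like genes outside the UBE2 name, UFC1, the E2 of UFM1, rose (0.28, adjusted p = 0.0425 in limma) but was called in only 2 of 14 alternative fits.

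Among 16 subunits and activators of the APC/C, the ligase that UBE2C and UBE2S serve, CDC27 (0.47, adjusted p = 0.0478 in limma) and ANAPC7 (0.37, 0.0391) rose. Of 14 alternative fits, 2 called CDC27 and 4 called ANAPC7. Of the activators, CDC20 had 75.65, 92.32 and 97.61 FPKM in LV-NC and 116.05, 115.22 and 106.54 FPKM in LV-SNORA28 without passing the test (adjusted p = 0.084 in limma). CUL1, the scaffold of the SCF ligases, rose among 13 cullin and neddylation genes (0.25, adjusted p = 0.0499 in limma) but was called in only 1 of 14 alternative fits, and RNF8, a DNA damage ligase that works with UBE2N, rose among 8 tested K63 ligases (0.39, 0.0298) and was called in 3 of 13. RNF40, a subunit of the histone H2B ligase that pairs with UBE2A and UBE2B, fell from 17.19, 17.92 and 18.74 FPKM to 14.25, 13.42 and 14.52 FPKM (log2 fold change -0.33, adjusted p = 0.0291 in limma). It was called in 7 of 14 alternative fits. RNF20, the other subunit of that ligase, had a log2 fold change of 0.01 (adjusted p = 0.965 in limma). RNF40 was the only call among 10 Rad6 and Fanconi partners, and SYVN1 the only one among 10 ER degradation genes. None of 12 modifier genes, 13 SUMO ligases and proteases and 10 tested RBR ligases was called in limma, and 4, 5 and 2 of them had an unadjusted p below 0.05. All of the latter were higher. Of all genes tested, 22.0% were higher and 6.08% lower at that unadjusted threshold. In the fit without the mean-variance trend 1 RBR ligase was called, and no modifier or SUMO gene, beside 6.24% of all genes called higher.

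The 20 proliferation markers, chosen to be read beside UBE2C and UBE2S, had 8 genes that rose and none that fell in limma, with a median log2 fold change of 0.32. This is 40% of them, beside the 6.81% of all genes called higher. At an unadjusted p below 0.05 in limma, 13 were higher and 0 lower, beside 22.0% and 6.08% of all genes tested. The 8 calls became 2 without LV-SNORA28 replicate 2 or 3, 3 without LV-NC replicate 1 or 2, and 6 without either of the other libraries. In those fits 1.56% to 4.08% of all genes tested were called higher. MCM6, a subunit of the replicative helicase, had the largest fold change (1.37, adjusted p = 0.00286 in limma). The other helicase subunits of the list, MCM2, MCM3 and MCM5, were not called, with log2 fold changes of -0.09, 0.05 and -0.01. Among the called markers TOP2A (0.65, 0.0127) and CCNB1 (0.52, 0.0128) came next, and MCM6 and TOP2A were called in all 14 alternative fits. MKI67, at 56.47, 24.52 and 45.17 FPKM in LV-NC and 35.45, 47.72 and 43.16 FPKM in LV-SNORA28, overlapped between the groups. The part of proliferation in the levels of UBE2C and UBE2S was not tested. With the GC trend removed, 2 proliferation markers and 3 genes of the other lists were called, beside 362 higher and 340 lower of 12053 genes tested.

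**Figure D5:**
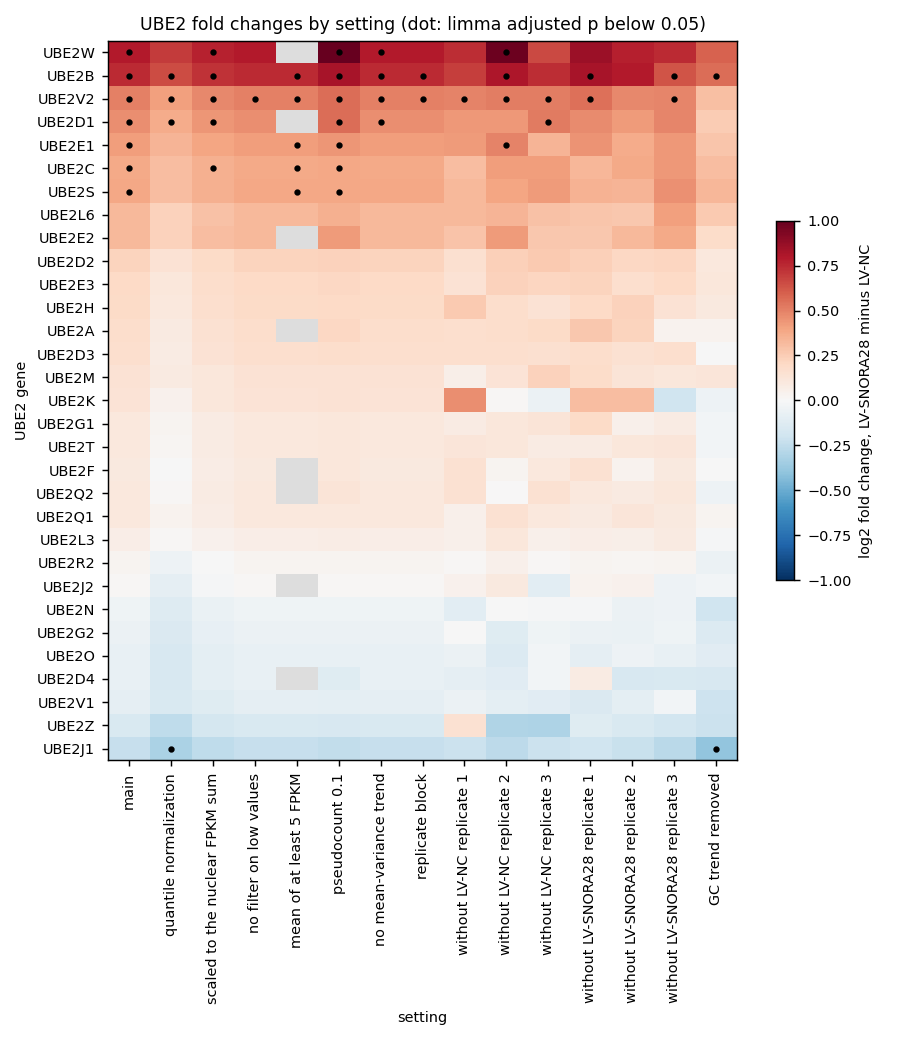
Log2 fold change (colour, LV-SNORA28 minus LV-NC) of 31 UBE2 genes tested in the main limma fit and in 14 alternative fits, with a dot where the adjusted p in limma was below 0.05 and grey where the gene was not tested. UBE2V2 carries a dot in 12 alternatives and UBE2B in 10, while UBE2J1 carries one in 2.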

How the data were processed

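Poly(A) RNA for 6 HCT116 libraries was sequenced as paired ends after dUTP strand marking. The authors deposited 1 table per library of Ensembl identifiers and FPKM values. The submitters' processing notes name cutadapt 1.9, HISAT2 2.2.1, StringTie 2.1.6, DESeq2, edgeR and hg38 without saying which step made the FPKM. The annotation release and the mapped totals are not given in the sources used here. FPKM values depend on the mapped total, so a shift in abundant transcripts moves those of other genes.

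Identifiers were matched to GENCODE release 44 on GRCh38 (60401 of 60612 matched, 211 not). Groups came from the sample titles. Values were transformed to log2(FPKM + 1), with a pseudocount of 1, and 12076 genes (mean of 1 FPKM or more) were fitted in limma 3.58.1 (R 4.3.3, trend on, two-sided, Benjamini-Hochberg over all genes). The fit was tested on simulated data. Ratios of paralogs were tested with exact permutation tests (SciPy 1.17.1). In each library 37% to 39.8% of low values were whole steps within 0.1, where chance gives 20%, so fragment counts were not recovered. Any 2 libraries differed in at least 26342 genes.

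Values in every library were given for UBE2 genes with an adjusted p below 0.05, for UBE2 genes chosen for their roles and for the 5 with the highest mean. The result of 1 UBE2 gene, which counts in the totals, is not reported here. At most 3 called genes of each list were named. UBE2J1, UBE2K, UBE2Z, the uncalled genes of the lists, the read-through sum and the paralog pairs were chosen after their values were seen. The members and lists were chosen with earlier results of these data known. Alternatives were quantile normalization, scaling to the nuclear FPKM sum, other filters, a pseudocount of 0.1, no trend, the replicate number as a block and each library left out. Removal of the GC trend (lowess, span 0.3) was added after the data had been seen. The study's threshold was applied to the same fit.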

Additional observations from a re-analysis of the deposited data

How the results depend on the processing

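The 7 called UBE2 genes became 4 under quantile normalization (3 higher, 1 lower), 4 without the mean-variance trend, 1 without a filter, 2 with the GC trend removed and 2 under the threshold of the study, and ran from 0 to 4 when 1 library was left out. In limma the 0, without LV-SNORA28 replicate 2, stood beside 9 genes with an unadjusted p below 0.05. The median log2 fold change of 0.14 became 0.06 under quantile normalization, 0.11 without a filter and 0.01 with the GC trend removed, and ran from 0.11 to 0.19 when 1 library was left out. Over all genes the median moved from 0.09 to -0.01 with the GC trend removed. The 17 called genes of the 11 lists became 9 under quantile normalization, 3 without a filter, 5 with the GC trend removed and 3 under the threshold of the study, and ran from 2 to 8 when 1 library was left out. Without a filter all 3 were proliferation markers. Among all genes, 822 higher and 254 lower became 451 and 375 under quantile normalization and 362 and 340 with the GC trend removed. When 1 library was left out they ran from 188 to 492 higher and from 90 to 137 lower. Scaling to the nuclear sum, a mean of at least 5 FPKM and a pseudocount of 0.1 left 5, 5 and 7 UBE2 genes called. Of all genes tested, 5.09%, 11.1% and 6.8% were called higher in these fits. The limit of 5 FPKM left 24 UBE2 genes tested, without UBE2D1 and UBE2W, and the other called genes kept their calls. Of all genes, 0.934% were called higher without a filter and 6.24% without the mean-variance trend. The cause of these shifts was not tested.

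Libraries of the same replicate number did not deviate together, with correlations of deviations of -0.0441, 0.0914 and 0.00983. The sample titles state no pairing, and these correlations cannot tell whether libraries of the same number were prepared together. With the replicate number as a block, 2 UBE2 genes (UBE2B and UBE2V2) and 6 genes of the lists were called. These 6 were proliferation markers, and 0 genes of the 10 pathway lists were called. In that fit 3.13% of all genes tested were called higher.

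The fold changes of some uncalled genes turned sign in some fits, none of them past the threshold. In the main fit those of UBE2D3, UBE2Z and UBE2K were 0.167, -0.153 and 0.138. Under quantile normalization they were -0.005 for UBE2F, -0.086 for UBE2J2 and -0.054 for UBE2R2, and under scaling to the nuclear sum -0.013 for UBE2J2 and -0.002 for UBE2R2. When 1 library was left out, UBE2Z ran from -0.309 to 0.15 (0.15 without LV-NC replicate 1), UBE2D4 from -0.16 to 0.082 (0.082 without LV-SNORA28 replicate 1), UBE2J2 from -0.107 to 0.096 (-0.107 without LV-NC replicate 3 and -0.054 without LV-SNORA28 replicate 3) and UBE2K from -0.197 to 0.467 (-0.197 without LV-SNORA28 replicate 3 and -0.06 without LV-NC replicate 3). With the GC trend removed the values were -0.004 for UBE2D3, -0.006 for UBE2F, -0.028 for UBE2G1, -0.024 for UBE2J2, -0.049 for UBE2K, -0.009 for UBE2L3, -0.047 for UBE2Q2, -0.057 for UBE2R2 and -0.025 for UBE2T. Of the single-gene values over all fits, 361 kept their direction and side of the threshold, 57 lost the threshold and 2 gained it. The fragments behind each value are unknown, so the precision of low values could not be given.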
